A study of Mus musculus with 3 samples.

Results

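The transcripts of 10 genes of the exocrine pancreas were followed through single-cell libraries of mouse spleen. They encode 6 digestive proteases and the lipase cofactor colipase (Ctrb1, Try4, Try5, Prss2, Cela3b, Cpa1 and Clps) and 3 regenerating-family secretory proteins (Reg1, Reg2 and Reg3b). Each of the 10 symbols matched exactly 1 of the 56980 listed genes. The genes were picked because earlier results of the same libraries had shown them high after irradiation, so their height in the irradiated libraries is given as a description and not as a finding. The study compared 3 groups of wild-type (WT) mice with 1 spleen library each. In the IR+HSO group mice received 8.5 Gy and HSO, which the title of the series spells out as hemp seed oil. In the IR group mice received 8.5 Gy and what the label calls a "colvent control". Control mice received no irradiation. The labels state no time after irradiation, no dose or route of HSO and no number of mice per library, so every comparison is between 3 libraries without replicates, and no test could be made. Intervals in square brackets are exact 95% intervals and cover counting error only.

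Acinar cells of the pancreas make and store digestive enzymes as inactive precursors in granules and release them toward the gut. Their enzyme messages are among the most abundant RNAs of any cell. Reg proteins are small secreted C-type lectins that acinar cells make in larger amounts during stress or injury. Spleen lymphocytes are not known as a source of either group, and the tail of the pancreas lies against the spleen.

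The libraries held 45636807 UMIs (unique molecular identifiers, 1 per captured RNA molecule) over 12710 barcodes in IR+HSO, 50836313 over 13509 in IR and 47298108 over 9520 in control. Median UMIs per barcode were 2945 in IR+HSO, 3032 in IR and 4133 in control, and mitochondrial genes took 3.84% of UMIs in IR+HSO, 2.37% in IR and 2.25% in control. Leaving out the barcodes set apart below, 6 T cell genes had 134953 UMIs in IR+HSO, 193757 in IR and 114168 in control. The 4 B cell markers had 3386 UMIs in IR+HSO and 5789 in IR, against 122342 in control. Few barcode sequences were shared between libraries, 54 by IR+HSO and IR, 34 by IR+HSO and control and 44 by IR and control. The 34 and 44 held 0 UMIs of the 10 genes in control.

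The 10 genes together held 394783 UMIs in IR+HSO (0.865% of the library), 259233 in IR (0.510%) and 37 in control. Most of these sat in very few barcodes. Barcodes in which the 10 genes took at least 20% of all UMIs numbered 63 in IR+HSO, or 0.496% [0.381, 0.634] of barcodes, and 51 in IR, or 0.378% [0.281, 0.496]. Control had 0 of 9520, where 3 barcodes would be a share of 0.0315%. These 63 and 51 barcodes held 92.5% of the 10 genes' UMIs in IR+HSO and 79.6% in IR. Just inside the 20% limit were barcodes at 20.2% and 22.7% in IR+HSO and 21.5% and 25.1% in IR, and just outside it were 16.9% and 17.9% in IR+HSO and 17.2% and 18.7% in IR. Few barcodes lay near the limit. Only 6 in IR+HSO and 8 in IR had between 5% and 20%.

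**Figure D1:**
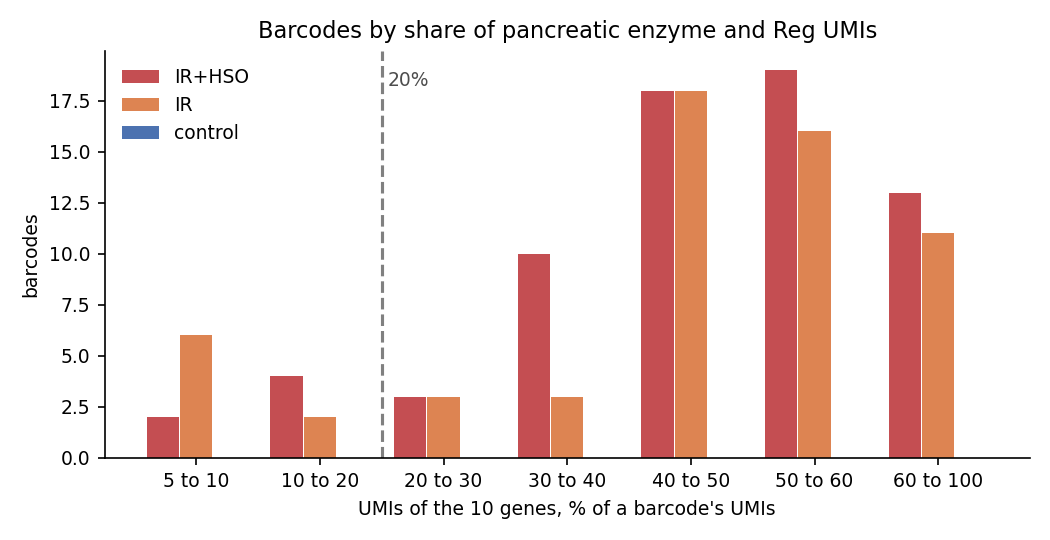
Number of barcodes (y axis) by the percentage of their UMIs that came from the 10 genes (x axis, bins from 5% up) in IR+HSO, IR and control. The dashed line marks 20%; 63 IR+HSO and 51 IR barcodes lie to its right and no control barcode does.

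The barcodes at 20% or more carried an acinar profile, with low counts of T cell and plasma cell markers. They had a median of 3279 UMIs in IR+HSO (503 to 100918) and 2887 in IR (562 to 46795), from a median of 417 genes in IR+HSO and 391 in IR. The 10 genes took a median of 50.1% of a barcode's UMIs in IR+HSO and 52.2% in IR. Mitochondrial genes took a median of 0.216% here, against 3.46% in the other barcodes of IR+HSO, and 0.122% against 2.42% in IR. The largest 5 of these barcodes held 46.9% of their group's UMIs of the 10 genes in IR+HSO and 48.3% in IR, so sums over them rest on a few. T cell signal was weak, since 4 of 63 in IR+HSO and 8 of 51 in IR had at least 2 Cd3 UMIs, and none in either library reached 10 UMIs of the plasma cell gene Jchain. It was not absent, as 17 in IR+HSO and 19 in IR had at least 1 Cd3 UMI. At least 1 Jchain UMI was found in 23 in IR+HSO and 15 in IR, and Ncr1 in 1 and 6. At least 10% mitochondrial UMIs were found in 4 in IR+HSO, with a maximum of 22.4%, and in 0 in IR.

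Other acinar genes were present in the same barcodes. Of 22 further acinar enzyme genes, 21 had UMIs in the IR+HSO barcodes and 20 in the IR barcodes, with sums of 86173 UMIs in IR+HSO and 38074 in IR. Of 10 further granule and inhibitor proteins, 9 had UMIs in each of the 2 libraries. Among them Zg16, a granule lectin, had 12204 UMIs in IR+HSO and 7344 in IR, and Spink1, the trypsin inhibitor that protects the acinar cell, had 1683 in IR+HSO and 808 in IR. Of 4 further Reg genes, Reg3a, Reg3d and Reg3g summed to 3930 UMIs in IR+HSO and 1972 in IR, and Reg4 had 0 in both. Of 7 transcription factor and receptor genes of acinar cells, 6 had UMIs in each library, at low counts. Ptf1a, the factor that defines acinar identity, had 4 UMIs in each library. Its partner Rbpjl had 29 in IR+HSO and 7 in IR, and Cckar, the receptor for cholecystokinin, had 49 in IR+HSO and 28 in IR. Nr5a2 had 8 in IR+HSO and 3 in IR, and Gata4 had 1 and 0. Bhlha15 had 11 in IR+HSO and 5 in IR, against 84 and 121 in the other barcodes. Gata6 went the other way, with 0 in IR+HSO and 2 in IR, against 74 and 172 in the other barcodes. None of 8 islet markers (among them Ins1, Ins2, Gcg and Sst) and none of 8 intestinal epithelial markers had a UMI in these barcodes. Of the 8 duct markers, 7 had UMIs in IR+HSO and 5 in IR. The keratin gene Krt18, also expressed in acinar cells, had 61 UMIs in IR+HSO and 44 in IR, the duct factor Sox9 had 2 in IR+HSO and 0 in IR, and the duct chloride channel gene Cftr had 0 in both.

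The RefSeq promoter windows (build GRCm38.p6, 250 bases before and 50 from the start on) are shown for 4 members because the PTF1 complex of acinar cells binds an E-box, CACCTG, together with the motif TTTCCC, and all members were abundant in the same barcodes. Windows were found for 8 of the 10 members, all but Try5 and Clps. Letters in capitals match CACCTG or TTTCCC on either strand, and no 2 matches overlap. The files used another build, so these positions belong to the reference and not to the counts.
Ctrb1, chr8:111690961-111691260, minus strand: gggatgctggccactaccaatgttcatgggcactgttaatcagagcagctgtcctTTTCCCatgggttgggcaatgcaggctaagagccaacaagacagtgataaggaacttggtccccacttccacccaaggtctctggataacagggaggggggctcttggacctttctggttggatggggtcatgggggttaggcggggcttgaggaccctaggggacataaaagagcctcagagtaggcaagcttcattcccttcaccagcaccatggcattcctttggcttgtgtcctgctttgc
Prss2, chr6:41521526-41521825, plus strand: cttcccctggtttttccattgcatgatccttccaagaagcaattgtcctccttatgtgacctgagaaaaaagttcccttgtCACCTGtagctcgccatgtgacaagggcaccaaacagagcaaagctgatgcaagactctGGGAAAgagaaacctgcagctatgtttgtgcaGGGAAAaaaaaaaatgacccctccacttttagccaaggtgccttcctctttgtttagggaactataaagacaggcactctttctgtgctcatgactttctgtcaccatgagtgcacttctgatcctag
Cela3b, chr4:137430471-137430770, minus strand: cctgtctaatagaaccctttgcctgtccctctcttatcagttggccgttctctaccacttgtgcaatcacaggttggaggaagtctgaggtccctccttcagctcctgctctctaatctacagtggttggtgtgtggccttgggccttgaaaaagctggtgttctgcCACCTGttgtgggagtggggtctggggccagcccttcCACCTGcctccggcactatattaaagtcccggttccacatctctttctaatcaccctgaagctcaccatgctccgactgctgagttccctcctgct
Reg3b, chr6:78370635-78370934, plus strand: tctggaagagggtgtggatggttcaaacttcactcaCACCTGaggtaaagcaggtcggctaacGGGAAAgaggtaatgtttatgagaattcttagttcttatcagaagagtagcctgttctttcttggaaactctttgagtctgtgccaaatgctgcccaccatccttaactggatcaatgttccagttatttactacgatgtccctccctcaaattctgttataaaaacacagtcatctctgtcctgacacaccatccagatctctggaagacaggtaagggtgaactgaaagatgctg
CACCTG was present in 5 of the 8 windows, against 20.2% of all 32851 windows. TTTCCC was present in 5 of 8, against 25.2%. Both were present in 2 of 8, Prss2 and Reg3b, against 4.86%. Counted between the first letters of the matches as printed, they lay 27 bases apart in Reg3b and 59 bases apart at the nearest in Prss2. These distances were not compared with the spacing in PTF1 sites. A match is a string of letters and was not tested as a binding site.

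Ctrb1, which encodes the protease precursor chymotrypsinogen B, was the leading member at 35.0% of the 10 genes' UMIs in the IR+HSO barcodes at 20% or more, and 33.1% in the IR ones. UMI counts tag transcripts and were not scaled to length, so these are shares of molecules counted. The trypsinogen genes Try5 and Prss2 came next, and the trypsinogen gene Try4 lay below Reg2 and Reg3b. Try5 held 11.8% in IR+HSO and 15.5% in IR, the widest gap in pooled UMIs, at 3.66 percentage points lower in IR+HSO. The median over single barcodes was 12.5% for Try5 in IR+HSO and 14.7% in IR. Medians of Ctrb1 (36.2% in IR+HSO, 33.7% in IR) and of Reg3b (8.14% and 5.88%) lay slightly further apart. The pooled gap thus leans on the large barcodes. In pooled UMIs the other members were as follows. Prss2 held 11.5% in IR+HSO and 11.6% in IR, and Try4 held 6.19% in IR+HSO and 5.73% in IR. The elastase-family gene Cela3b lay close to Try4, at 6.23% in IR+HSO and 5.69% in IR. Colipase Clps and the carboxypeptidase gene Cpa1 had the smallest shares, Clps with 3.73% in IR+HSO and 3.38% in IR and Cpa1 with 3.01% in IR+HSO and 2.97% in IR. The 3 Reg genes together held 22.6% in IR+HSO and 22.0% in IR, led by Reg2 at 8.90% in IR+HSO and 9.58% in IR.

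From barcode to barcode the mixture varied. Ctrb1 ranged from 20.3% to 48.1% of the 10 genes' UMIs over the 63 IR+HSO barcodes, with a median of 36.2%, and from 8.40% to 51.8% over the 51 IR barcodes, with a median of 33.7%. Clps varied most relative to its mean, with a coefficient of variation of 1.16 in IR+HSO and 1.19 in IR. Its share ran from 0.303% to 21.0% in IR+HSO, and in IR from 0 to 27.2%, with no Clps UMI in 4 of the 51. Try5 ran from 1.10% to 44.6% in IR+HSO and from 1.51% to 38.8% in IR. The 3 Reg genes ran from 13.1% to 31.6% in IR+HSO with a median of 21.4%, and from 8.03% to 32.3% in IR with a median of 17.8%. Small barcodes add counting error to these ranges, since 20 of the 63 in IR+HSO and 12 of the 51 in IR held under 1000 UMIs.

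The split between trypsinogens depends on small differences in sequence. Coding sequences of Try4 and Try5 were identical at 722 of 741 bases (97.4%), those of Try4 and Prss2 at 91.6% and those of Try5 and Prss2 at 90.3%, whereas Reg1 and Reg2 were 78.7% identical and Reg3b shared 55.3% with Reg1 and 54.9% with Reg2. The last 90 coding bases are shown because reads of Try4 and Try5 can be told apart only at the differing letters. Capitals mark the 17 positions that are not the same in all 3 genes.
Try4: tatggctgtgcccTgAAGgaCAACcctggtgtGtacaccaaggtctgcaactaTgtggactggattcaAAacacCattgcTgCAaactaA
Try5: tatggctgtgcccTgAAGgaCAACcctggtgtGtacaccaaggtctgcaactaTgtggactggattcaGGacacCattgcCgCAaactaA
Prss2: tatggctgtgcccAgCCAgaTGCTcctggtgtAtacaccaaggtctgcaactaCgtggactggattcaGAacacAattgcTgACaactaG
In this stretch, taken from the GENCODE M21 transcripts, Try4 and Try5 differed at 3 positions, while Prss2 differed from Try4 at 15 and from Try5 at 16. How reads that fit Try4 and Try5 alike were counted was not examined, so the counts of both may be affected. The gap in Try5 between the libraries carries the same limit.

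**Figure D2:**
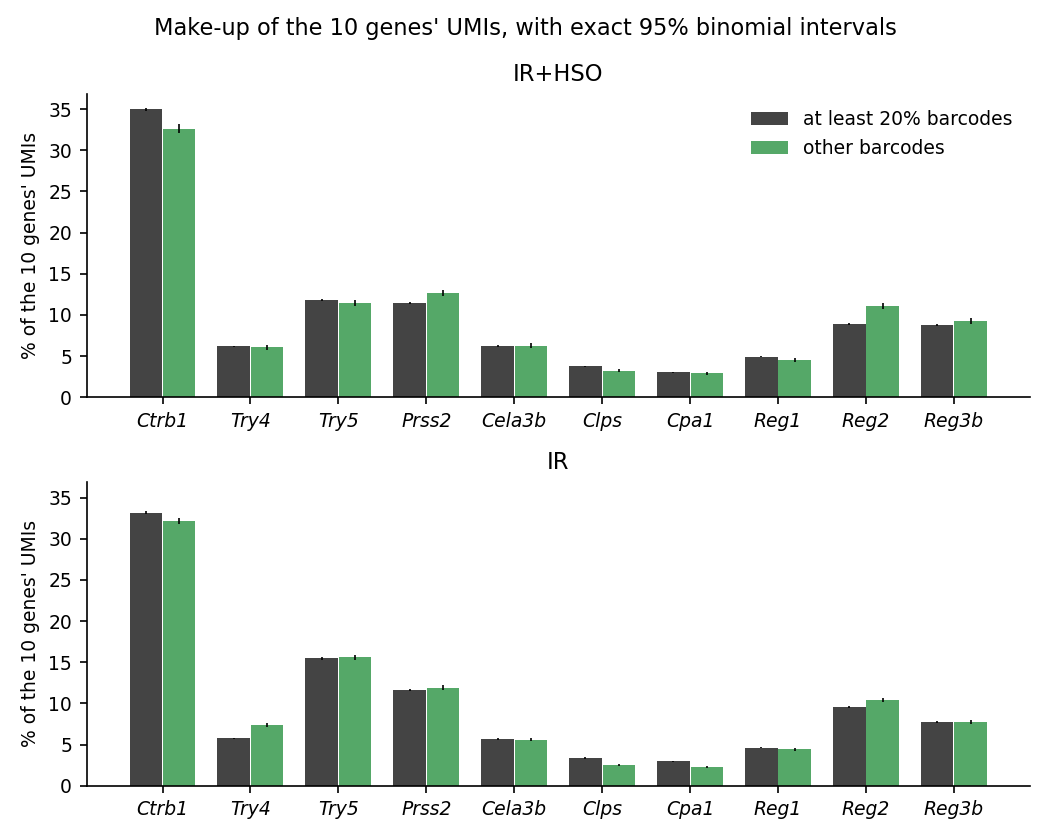
Percentage of the 10 genes' UMIs held by each gene (y axis) in barcodes at 20% or more and in all other barcodes, for IR+HSO (top) and IR (bottom), with exact 95% binomial intervals. Ctrb1 leads with 32.1% to 35.0% in all 4 sets, and Try5 is higher in both IR sets than in both IR+HSO sets.

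The remaining barcodes also carried the 10 genes, at low levels. A barcode below 20% held a mean of 2.35 UMIs of the 10 genes in IR+HSO [2.32, 2.38], 3.93 in IR [3.90, 3.97] and 0.00389 in control [0.00274, 0.00536]. Medians were 2 in IR+HSO and 3 in IR, the quartiles were 1 and 3 in IR+HSO and 2 and 5 in IR, and the highest barcode had 317 in IR+HSO and 231 in IR. The variance between barcodes was 12.6 times the mean in IR+HSO and 6.77 times in IR. Intervals of means and ratios leave out this extra spread, so here and below they are too narrow. At least 1 UMI of the 10 genes was found in 78.3% [77.6, 79.0] of these barcodes in IR+HSO, in 95.6% [95.2, 95.9] in IR and in 15 barcodes of control.

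The make-up of these UMIs lay close to that in the barcodes at 20% or more. In IR+HSO Ctrb1 held 35.0% in the barcodes at 20% or more, against 32.6% in the others, which was the largest gap of any member there. Reg2 held 8.90% in the barcodes at 20% or more and 11.1% in the others, and Prss2 11.5% there and 12.6% in the others. In IR the largest gap was in Try4, 5.73% in the barcodes at 20% or more and 7.36% in the others. In pooled UMIs Try5 again had the widest gap between the libraries, at 11.4% in IR+HSO and 15.6% in IR. The difference of -4.16 percentage points lay beside the pooled -3.66 of the barcodes at 20% or more.

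Summed over the other barcodes, the 10 genes stood at 660 CPM (counts per 1000000 UMIs) in IR+HSO, 1048 in IR and 0.782 in control. Ctrb1 had 215 CPM in IR+HSO, 337 in IR and 0 in control. Try5 had 75.5 CPM in IR+HSO, 164 in IR and 0 in control, and Try4 had 40.0 in IR+HSO, 77.1 in IR and 0 in control. All 3 enzymes were highest in IR and had no UMI in control. Prss2 was the exception in control, with 83.2 CPM in IR+HSO, 125 in IR and 0.761 in control. Among the other enzymes Cela3b had 41.2 CPM in IR+HSO and 58.7 in IR, Clps 21.2 in IR+HSO and 26.4 in IR, and Cpa1 19.1 in IR+HSO and 24.2 in IR, each with 0 UMIs in control. Of the Reg genes, Reg2 had 73.4 CPM in IR+HSO, 109 in IR and 0.0211 in control, which was 1 UMI. Reg3b had 61.2 CPM in IR+HSO and 81.0 in IR, and Reg1 had 30.1 in IR+HSO and 46.3 in IR, with 0 in control. Each gene had its highest level in IR. In the order of levels the intervals of neighbours overlapped for Try5 and Reg2, for Cela3b and Try4 and for Clps and Cpa1 in IR+HSO, and for Reg3b and Try4 and for Clps and Cpa1 in IR.

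**Figure D3:**
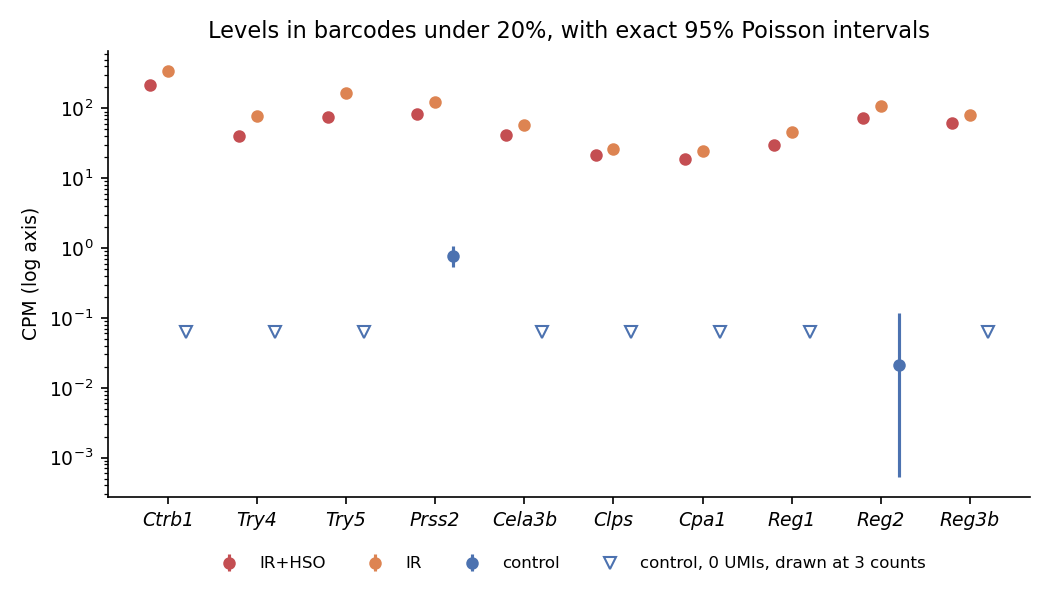
CPM on a log axis (y axis) of each gene (x axis) in barcodes below 20%, for IR+HSO, IR and control, with exact 95% Poisson intervals. Open triangles mark 8 genes with 0 UMIs in control, drawn at the level of 3 counts; Prss2 at 0.761 CPM and Reg2 at 0.0211 CPM are the control values above 0.

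IR+HSO and IR share 1 control library, so their comparisons with it are not independent. All 10 genes passed the filter of 5 CPM in either library and were at least 10-fold higher than control in both, where 1.67% of 10961 tested genes were so in IR+HSO and 1.73% of 10811 in IR; the genes were picked on this contrast, so nothing is read from the count. The lower bound for Ctrb1 was the highest, at least 3393-fold higher in IR+HSO than in control and at least 5313-fold higher in the IR library. Prss2, with its 36 UMIs in control, was 109-fold [78.8, 156] higher in IR+HSO and 164-fold [119, 235] in IR. For Reg2 the single UMI in control gives a ratio of 3472 [623, 137192] in IR+HSO and 5163 [926, 203974] in IR. The median over the 10 genes, with bounds taken against 3 counts, was 640-fold in IR+HSO and 1071-fold in IR, beside 1.06 for all tested genes in each comparison. Of 22 further acinar enzyme genes 9 passed the filter in each comparison, and 8 were at least 10-fold higher, all but Klk1, with a median of 240-fold in IR+HSO and 233-fold in IR. Of the further granule and inhibitor proteins, 3 of 3 that passed were higher in IR+HSO and 4 of 4 in IR. A gene that passes the filter only through an irradiated library had to differ, so these counts lend no support of their own. Markers of fibroblast-like stroma stood apart in the same direction in the other barcodes, with 15864 UMIs in IR+HSO and 24536 in IR, against 17 in control, all 5 genes being detected in each, and their part in the result was not tested.

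Between the irradiated libraries, the 10 genes were lower in IR+HSO than in IR in the other barcodes and higher over all barcodes. In the other barcodes the ratio of summed CPM of IR+HSO over IR was 0.630 [0.621, 0.639], and single genes lay between 0.462 [0.443, 0.481] for Try5 and 0.802 [0.737, 0.872] for Clps. None was at least 10-fold higher, as were 0.0840% of 10709 tested genes, and 5 of the 10 (Ctrb1, Try4, Try5, Prss2 and Reg1) were at least 1.5-fold lower, as were 5.20% of tested genes. The median ratio was 0.669 for the 10 genes and 1.02 for all tested genes. Within T cell barcodes the summed ratio was 0.609 [0.598, 0.620]. Over all barcodes it was 1.70 [1.69, 1.70], so the direction turns with the 63 and 51 barcodes at 20% or more, of which the largest 5 held 46.9% of those barcodes' UMIs of the 10 genes in IR+HSO and 48.3% in IR. The interval over all barcodes is far too narrow, since the variance between barcodes was 21640 times the mean in IR+HSO and 11113 times in IR. Without replicates, a difference between mice, between dissections and between treatments cannot be told apart.

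Classes of the other barcodes were set by marker UMIs: T with at least 2 UMIs of Cd3d, Cd3e and Cd3g, NK with at least 1 of Ncr1 and no Cd3, and plasma with at least 10 of Jchain. A barcode could be in both T and plasma, as were 77 in IR+HSO and 102 in IR, or in both NK and plasma, as were 11 in IR+HSO and 21 in IR. In IR+HSO the mean was 2.49 UMIs [2.34, 2.65] of the 10 genes per plasma barcode (393 barcodes), 2.59 [2.50, 2.69] per NK barcode (1120) and 2.34 [2.31, 2.38] per T barcode (7257). In IR it was 4.67 [4.46, 4.90] per plasma barcode (377), 3.81 [3.71, 3.90] per NK barcode (1572) and 3.92 [3.88, 3.97] per T barcode (8337). Within a library the class means lay near each other, and every IR mean lay above every IR+HSO mean. Barcodes with at least 2 UMIs of Cd79a and Cd79b and of no other class were few, 38 in IR+HSO at 1.68 [1.30, 2.15] and 85 in IR at 3.31 [2.93, 3.72].

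The order of classes changed with the scale. Relative to all UMIs, plasma barcodes stood at 238 CPM, NK at 646 and T at 557 in IR+HSO, and at 338, 1165 and 914 CPM in IR. Plasma over T was 0.427 [0.400, 0.455] on the CPM scale and 1.07 [0.998, 1.14] per barcode in IR+HSO, and 0.370 [0.352, 0.388] and 1.19 [1.13, 1.25] in IR. Median depth differed, 6196 UMIs per plasma barcode, 3552.5 per NK and 3499 per T in IR+HSO, and 11692, 2847 and 3551 in IR. All 10 genes were at least 1.5-fold lower in plasma than in T on the CPM scale in each library, as were 84.8% of all tested genes in IR+HSO and 85.4% in IR, so the count lies near that of any gene. The median ratio of all tested genes was 0.329 in IR+HSO and 0.338 in IR, below the 0.421 of the 10 genes in IR+HSO and 0.375 in IR. In IR 1 plasma barcode held 231 of the 1762 UMIs and also had 21 Cd3 UMIs. That barcode also counted as T and was the leading barcode of both classes. Without it, plasma averaged 4.07 and T 3.90 UMIs.

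NK over T was 1.16 [1.12, 1.21] on the CPM scale in IR+HSO and 1.27 [1.24, 1.31] in IR, while per barcode it was 1.11 [1.06, 1.15] in IR+HSO and 0.970 [0.943, 0.997] in IR. None of the 10 genes was at least 1.5-fold higher in NK, as were 12.2% of tested genes in IR+HSO and 13.0% in IR. Leading NK barcodes held 171 of 2905 UMIs in IR+HSO and 187 of 5984 in IR. Prss2 stood out after its values were seen, at 0.388 UMIs per NK barcode and 0.296 per T barcode in IR+HSO, a ratio of 1.31 [1.18, 1.45], but its ratio in IR was 1.01 [0.928, 1.09]. Without the leading NK barcode, which held 17 of the Prss2 UMIs, the NK mean was 0.373.

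The share of barcodes with any UMI of the 10 genes was 83.0% in plasma, 80.4% in NK and 78.9% in T barcodes of IR+HSO, and 95.2%, 95.8% and 95.4% in those of IR. The T share is given beside the others for comparison, and none of the shares is read as expression. The source of these UMIs was not tested. Thinned to 1000 UMIs per barcode, which left out 22 plasma, 92 NK and 169 T barcodes in IR+HSO and 13, 182 and 293 in IR, the shares were 28.6%, 39.8% and 40.1% in IR+HSO and 37.1%, 66.8% and 60.0% in IR. Plasma had the highest share in IR+HSO and the lowest in IR before thinning, and the lowest in both after it, so no order of levels is read from the shares.

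**Figure D4:**
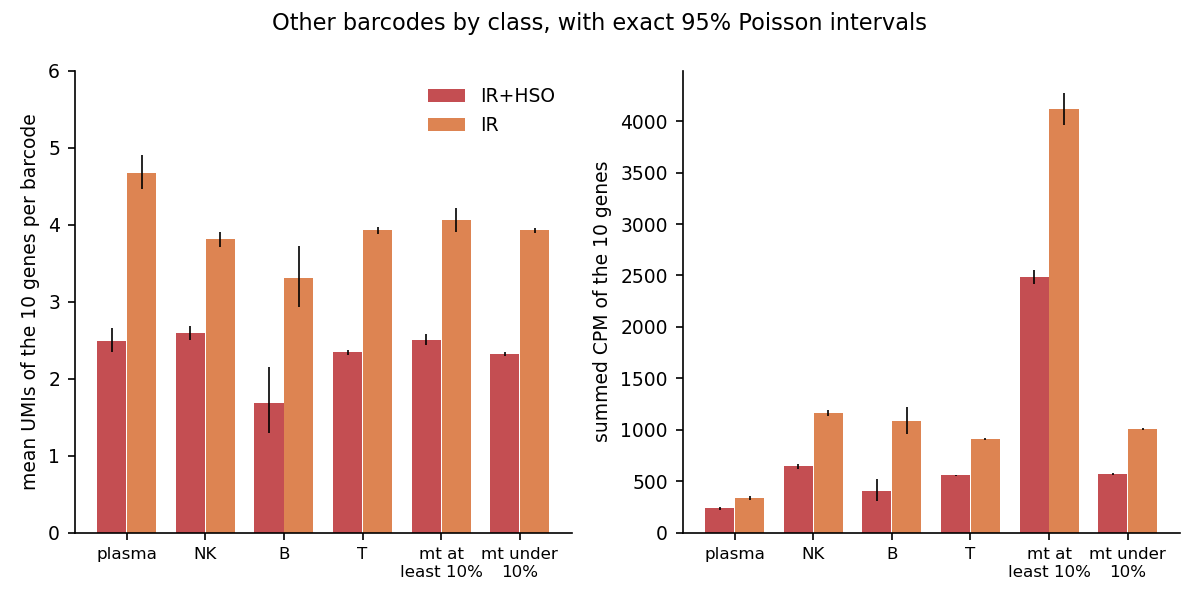
Mean UMIs of the 10 genes per barcode (left) and summed CPM (right) by class of barcode below 20%, for IR+HSO and IR, with exact 95% Poisson intervals; mt is the share of mitochondrial UMIs. Means per barcode stay between 1.68 and 2.59 in IR+HSO and between 3.31 and 4.67 in IR, while CPM runs between 238 and 2485 in IR+HSO and between 338 and 4117 in IR.

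Mitochondrial share gave the same contrast between scales. Barcodes with at least 10% mitochondrial UMIs, a usual sign of damaged cells, numbered 2098 in IR+HSO and 643 in IR. Their summed level was 2485 CPM, against 570 CPM in barcodes under 10% in IR+HSO, and 4117 against 1009 CPM in IR. The ratios were 4.36 [4.23, 4.49] in IR+HSO and 4.08 [3.92, 4.24] in IR. Per barcode they held 2.51 UMIs, against 2.32 in barcodes under 10% in IR+HSO, and 4.06 against 3.93 in IR. These ratios were 1.08 [1.05, 1.11] in IR+HSO and 1.03 [0.993, 1.08] in IR. Their median depth was 775 UMIs against 3322 in IR+HSO and 863 against 3139 in IR. All 10 genes were at least 1.5-fold higher in CPM in each library, as were 16.7% of tested genes in IR+HSO and 41.6% in IR. Per barcode the median ratio was 1.09 for the 10 genes and 0.256 for all tested genes in IR+HSO, and in IR 1.04 for the 10 genes and 0.339 for all. The 5th to 95th percentile of all tested genes per barcode ran from 0.0951 to 0.497 in IR+HSO and from 0.103 to 0.876 in IR, below the median of the 10 genes. Within T barcodes alone, the ratio was 2.09 [1.92, 2.27] in CPM and 0.865 [0.794, 0.941] per barcode in IR+HSO, and in IR it was 3.58 [3.27, 3.90] in CPM, with an interval from 0.917 to 1.09 per barcode.

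Across depths the number of UMIs of the 10 genes per barcode varied less than their CPM. From the bin of 500 to 1000 UMIs up to that of 16000 or more, the mean was 2.18, 2.20, 2.23, 2.56, 2.93 and 3.75 in IR+HSO and 4.02, 3.80, 3.83, 4.01, 4.37 and 4.56 in IR. Summed CPM was 3066 in the lowest and 154 in the highest bin of IR+HSO, and 5304 and 190 in those of IR. CPM thus was lowest in the deepest barcodes, which held the highest counts of the 10 genes. In T barcodes the lowest and highest bins had 1.62 [1.43, 1.83] and 3.77 [3.31, 4.27] in IR+HSO, and 3.79 [3.57, 4.02] and 5.07 [4.60, 5.58] in IR. IR lay above IR+HSO in each of the 6 bins, over all these barcodes and in T barcodes.

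**Figure D5:**
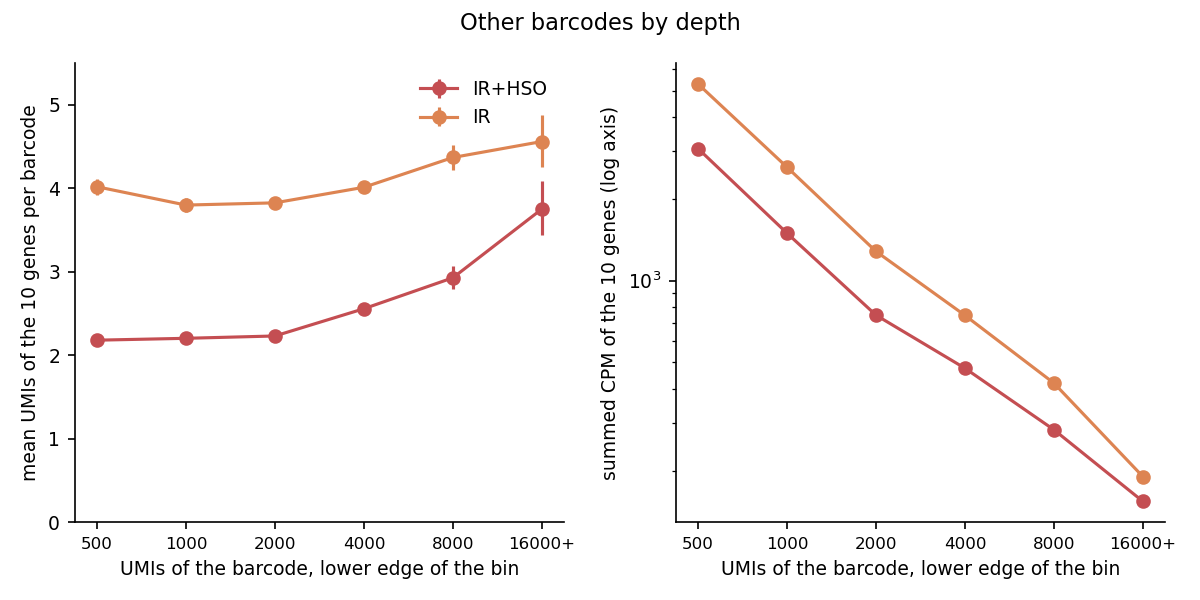
Mean UMIs of the 10 genes per barcode with exact 95% Poisson intervals (left) and their summed CPM on a log axis (right) in barcodes below 20%, by the barcode's UMIs in 6 bins, for IR+HSO and IR. The left lines stay between 2.18 and 3.75 in IR+HSO and between 3.80 and 4.56 in IR, while the right lines run between 3066 and 154 CPM in IR+HSO and between 5304 and 190 CPM in IR.

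In control the 10 genes were nearly absent, apart from Prss2. Of the 37 UMIs, 36 were Prss2 and 1 was Reg2. The Prss2 UMIs lay in 14 barcodes, 12 of them T barcodes with 34 UMIs, 1 in the B class and 1 in no class. B cell markers were not absent from the T barcodes, since 4 of the 12, with 16 of the 34 UMIs, also had at least 2 UMIs of Cd79a and Cd79b, and 2 of these had 19. A single T barcode held 13 Prss2 UMIs and another 7. T barcodes had 0.00902 Prss2 UMIs each [0.00625, 0.0126], B barcodes 0.000270 [6.82e-06, 0.00150] and NK barcodes 0 of 343, and the 12 T barcodes had none of the other 9 genes. RefSeq lists Prss2 on chromosome 6 directly before Trbd1 and Trbj1-1, segments of the T cell receptor beta locus. Try4 is listed directly after Trbv29 and Trbv30 of the same locus, with Try5 near it, and both had 0 UMIs in control. The Prss2 barcodes had no Trbd1 UMI. Whether Trbd1 can be counted in these libraries was not examined, so nothing is read from its absence. Whether these counts are Prss2 transcripts was not tested. Without Prss2 the summed ratios over control rest on 1 UMI.

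Genes with a pattern like that of the 10 were found by correlating log2(CPM + 1) with the members' mean over 20 sets of barcodes (classes within libraries, with at least 20 barcodes), among 17627 genes. The sets share libraries and depth, and they include the barcodes at 20% or more, which the members themselves define. The coefficients are therefore a description. The nearest was 2210010C04Rik with r = 0.999, followed by Pnlip (pancreatic lipase), Cpb1 (carboxypeptidase B), Cela2a (an elastase) and Zg16, and the tenth, Cela1, had r = 0.977. Sycn, Rnase1, Pnliprp1 and Ctrl lay between them. Each member correlated with the mean at 0.988 or above, but each is part of that mean, so nothing is read from these values. Cela2a ran against the members between the irradiated libraries, with 45.8 CPM in IR+HSO and 27.9 CPM in IR in the other barcodes, a ratio of 1.64 [1.53, 1.76]. In the barcodes at 20% or more it had 32239 CPM in IR+HSO and 13667 CPM in IR, a ratio of 2.36 [2.29, 2.43]. Pnliprp1, a lipase-related protein, had ratios of 1.03 [0.925, 1.14] in the other barcodes and 1.75 [1.67, 1.83] in those at 20% or more. These 2 were singled out after their values were seen. In the barcodes at 20% or more, the variance of the 10 genes' UMIs was 17921 times the mean in IR+HSO and 10138 times in IR. Intervals for pooled counts of those barcodes leave out the spread between barcodes and are far too narrow.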

How the data were processed

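The authors deposited raw UMI counts for each barcode and gene. Per the file headers they came from Cell Ranger 7.0.1. The build was GRCm39 per the submitters' processing notes. The annotation release, the kit's transcript end and the doublet treatment are not given in the sources used here, and no doublets were removed. All deposited barcodes were used, none of which held under 500 UMIs.

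The genes and gene lists were chosen with earlier results of these data known. Named genes are the 10 members, members of the lists and the 10 genes most alike. Counts were summed per library and class with Python 3.11.15 and scipy 1.17.1, and given as CPM of the class total and as UMIs per barcode. With 1 library per group, no p-value was computed. Intervals of counts (Poisson), shares (Clopper-Pearson) and ratios (exact conditional) are at 95%. A gene at 0 was set to 3 counts per library for a bound, which is not the limit of an exact 95% interval. Genes with at least 5 CPM in either set were compared. Calls were made at 10-fold between libraries and 1.5-fold within them. Calls and intervals were run on summed counts simulated from the control library's means with Poisson error only. That setting lacks the spread between barcodes, so it cannot show that the intervals cover it. Other cuts, scalings, marker minimums and class rules were tried. Sequences came from RefSeq (GRCm38.p6) and GENCODE M21 transcripts and carry no coordinates of the files. No protein table was used.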

Additional observations from a re-analysis of the deposited data

How the results depend on the processing

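With 50% in place of 20%, the barcodes set apart numbered 32 in IR+HSO and 27 in IR, and control had 0 under every cut tried. Log2 ratios of summed CPM in the other barcodes were -0.67 for IR+HSO over IR, and -0.69 with 10%, -0.49 with 50%, -0.82 with barcodes under 10% mitochondrial UMIs only, -0.69 with median-of-ratios scaling, -0.59 without member, mitochondrial and ribosomal UMIs in the total and -0.74 per barcode. They were 9.72 for IR+HSO over control, and 10.75 with 50% and 9.24 per barcode, and 10.39 for IR over control, and 11.23 with 50%. Without Prss2, a setting chosen after seeing the data, they were 14.74 for IR+HSO and 15.41 for IR against 1 UMI in control. With a minimum of 50 CPM, 5 genes passed in IR+HSO over control, and all 5 were 10-fold higher. They passed only through IR+HSO and were picked on this contrast, so nothing is read from the count. The share of all tested genes at that minimum was not computed.

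NK over T was 0.22 in IR+HSO, 0.15 per barcode and 0.14 without the leading barcode of each class (chosen after seeing the data). In IR it was 0.35, and 0.25 with stricter markers, but turned to -0.044 per barcode. Plasma over T was -1.23 in IR+HSO, -1.09 with barcodes of 1 class only, and turned to 0.091 per barcode. In IR it was -1.44, and -1.59 with barcodes of 1 class only, -1.69 with stricter markers and -1.63 without the leading barcodes, and turned to 0.25 per barcode. The per-barcode setting differs from the CPM one only in not dividing by the UMI total, which varied between classes; for the others the cause was not tested.

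For at least 10% over under 10% mitochondrial UMIs the log2 ratio was 2.12 in IR+HSO, and 1.43 and 2.43 with cuts of 5% and 20%, 1.06 in T barcodes, 2.43 without mitochondrial genes, 1.98 with 10% in place of 20%, 2.05 without the leading barcodes and 0.11 per barcode. In T barcodes per barcode, added after seeing the data, it turned to -0.21. In IR it was 2.03, and 1.78 with a cut of 5%, 1.84 in T barcodes, 2.21 without mitochondrial genes, 0.048 per barcode and 0.0028 in T barcodes per barcode. Of 79 alternatives over 15 results, 42 moved a value by less than its counting interval or a count by less than 1.5 times. No paired analysis was possible because each group has 1 library.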

Other observations

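Outside the barcodes at 20% or more, Gcg, the islet hormone gene for glucagon, had 20 UMIs in IR+HSO, 1 in IR and 1 in control, while Ins2, Sst, Ppy, Iapp and Pyy had 0 in all 3 libraries. All UMIs of the 8 islet markers in these barcodes lay in T barcodes, 23 in IR+HSO, 2 in IR and 2 in control. Their source was not tested. Outside the barcodes at 20% or more, the 8 duct markers together stood at 40.9 CPM in IR+HSO, 37.1 in IR and 11.4 in control. Most of this sum was Epcam, with 1571 of 1841 UMIs in IR+HSO, 1161 of 1875 in IR and 469 of 537 in control. Epcam had 0.982 UMIs per plasma barcode and 0.161 per T barcode in IR+HSO, and 1.13 and 0.0954 in IR. The sum is therefore not read as a duct signal, and single members went different ways. The keratin gene Krt19 had 37 UMIs in IR+HSO, 228 in IR and 0 in control, whereas Epcam, an epithelial adhesion gene, had 1571 in IR+HSO, 1161 in IR and 469 in control, and the mucin gene Muc1 had 105 in IR+HSO, 99 in IR and 23 in control. These genes were singled out after their values were seen.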
